A study of Mus musculus with 22 samples.

Results

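Microglia of Trem2-knockout mice were compared with microglia of wild-type mice fed cuprizone and Covi-Ox together, on 6 of the 22 arrays of the series. The 3 knockout arrays, called KO set A, were chosen by their titles, which name both additives. The 3 wild-type arrays, called WT both, carry the 2 additives in every label. The labels of KO set A disagree with each other. Their titles say cuprizone and Covi-Ox, while their descriptions, source names and characteristics say Covi-Ox alone for 4 weeks. KO set B, another 3 knockout arrays, has the reverse conflict, with Covi-Ox alone in the titles and both additives in the other fields. Under the titles, KO set A against WT both is the difference between genotypes on the same feed. Under the other fields, the knockout mice had no cuprizone, and genotype and cuprizone cannot be told apart in this comparison. No reading was chosen here.

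The 2 genotypes are labelled WT and Trem2(-/-). The labels do not give the construct of the allele, the strain, the age or the sex. Diets were normal chow, cuprizone at 0.2% of the feed, Covi-Ox T70 mixed tocopherols at 0.1% with added alpha tocopherol, or both. Mice on both additives had eaten the tocopherol feed for 2 weeks first, and the array labels give 4 weeks of treatment. Brain cells positive for CD11b, CD45 and F4/80 together were sorted as microglia, so that other macrophages carrying these 3 proteins could enter the gate. The other groups are WT control, KO control (2 arrays each, chow), WT cuprizone, KO cuprizone and WT Covi-Ox (3 arrays each). No label says that replicates were separate animals, so the p-values measure only the spread between these samples, which may be technical.

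TREM2 is a receptor of microglia that binds lipids, lipoproteins and cell debris and signals through the adaptor TYROBP (DAP12) to the kinase SYK. Cuprizone, which binds copper, kills the myelin-forming oligodendrocytes when fed to mice, and microglia then take up the myelin debris. Microglia near damaged myelin or amyloid turn on a disease-associated (DAM) programme of lipid, lysosomal and adhesion genes and lower their homeostatic genes, and the late stage of that programme is known to need TREM2. Tocopherols are the vitamin E family of lipid antioxidants.

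Values are intensities summarised per probe set with RMA, and differences are in log2 units, KO set A minus WT both, with the standard error (SE) of a limma fit over all 22 arrays. A gene was called at a Benjamini-Hochberg adjusted p under 0.05 over 11830 genes tested. Array medians ran from 36.1 to 38.6, and a level at or under them is imprecise, as is any fold that rests on it. Within each group, pairs of the 6 arrays correlated at 0.984 to 0.986. Their mean over 30 immediate-early genes, which rise during tissue dissociation, lay between 9.72 and 9.81 (log2), whereas WT cuprizone 3, KO cuprizone 2 and KO cuprizone 3 stood low in these genes. These 3 arrays enter here through the shared spread and the values of the cuprizone groups. They also enter the choice of probe sets and of genes to test, made over all 22 arrays.

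All 14 microglial markers with a probe set lay above the array median on all 6 arrays. Their summed intensity was 36540 to 38099 in KO set A and 27666 to 28072 in WT both. None of 12 neuronal markers lay above the array median on all 6 arrays, 2 of 14 T and NK cell markers did, and 3 of 14 neutrophil markers did. So did 5 of 15 oligodendrocyte, 4 of 12 monocyte, 2 of 11 astrocyte, 2 of 8 B-cell, 1 of 11 endothelial and 1 of 2 erythroid markers. Border macrophage markers, which are genes of perivascular and meningeal macrophages, lay above it for 12 of 13, with sums of 2963 to 3789 in KO set A and 1981 to 2406 in WT both. The part of other cells in the results below was not tested, and in sorted bulk samples fewer cells of a type and less RNA per cell cannot be told apart.

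Trem2 itself, on chromosome 17, was measured at 1491, 1424 and 1370 in WT both and at 99.5, 89.4 and 84.5 in KO set A. Every knockout array was far below every wild-type array. The difference was -3.97 ± 0.11 (SE, n = 3 and 3; adjusted p = 6.09e-15 by limma), a 15.7-fold lower signal, and it matched the genotype label of all 3 arrays. The part of the gene that was deleted is not given, so the remaining signal is not read as transcript. Tyrobp, its adaptor, was at 4396, 4796 and 4805 in WT both and at 3972, 4282 and 4349 in KO set A. Its difference of -0.15 ± 0.08 did not pass the test (adjusted p = 0.303).

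Of the late DAM genes tested, 20 of 21 were lower in KO set A than in WT both, as were 14 of 18 glycolysis and hypoxia genes, and 18 of 25 homeostatic genes were higher. Of the 11830 genes, 1136 were called, which is 9.6% of those tested. The 474 higher genes were 4.01% and the 662 lower genes 5.6% of the total. These shares of all genes are the ones to set beside each list count below. Falls were larger than rises, with 183 called genes lower and 13 higher by at least 2-fold. The median difference of all genes was 0.03. Arrays of the 2 groups did not overlap for 31.8% of genes, so absence of overlap alone marks no gene. Leaving out WT both 2 reduced the calls to 718, and leaving out KO set A 3 to 740.

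**Figure D1:**
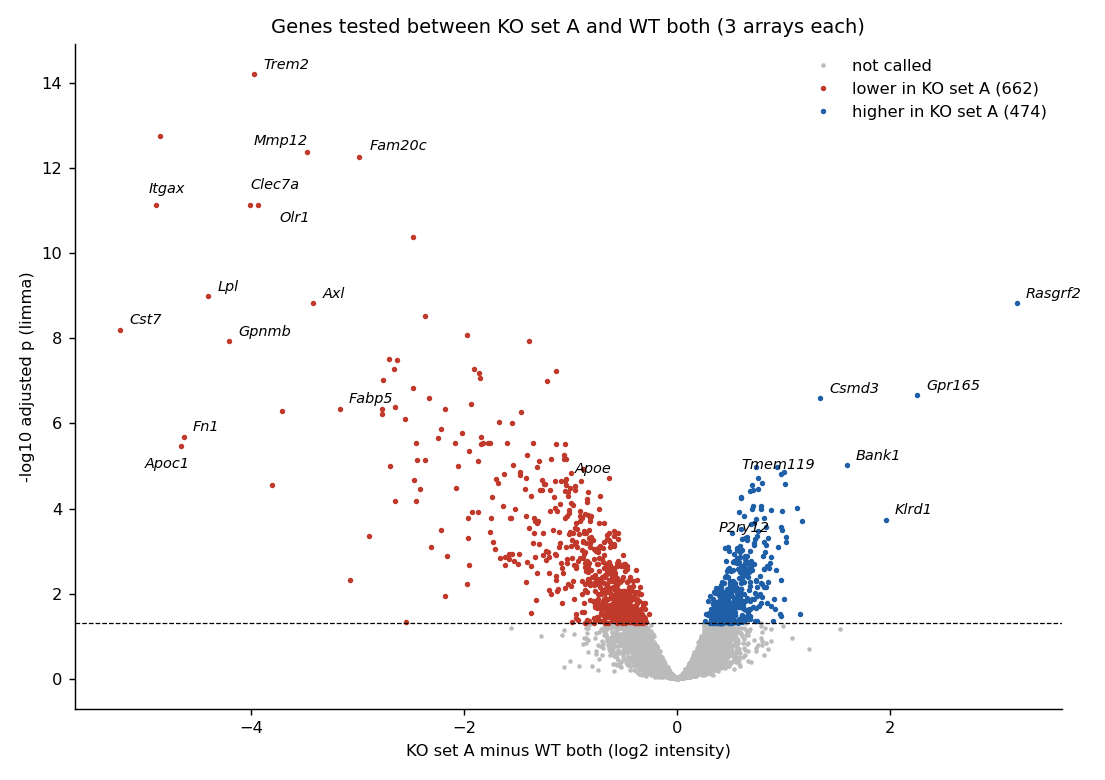
Difference between KO set A and WT both (x axis, log2 intensity) against -log10 adjusted p from limma (y axis) for 11830 genes, 3 arrays a group; the dashed line is the threshold. The largest differences are falls, led by Cst7 at -5.23, and the unnamed red point near Itgax is a gene without an established name on chromosome X.

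Cst7, encoding the lysosomal cysteine protease inhibitor cystatin F, fell most. It was at 2692, 2914 and 2583 in WT both and at 77.5, 78.1 and 62.9 in KO set A. The difference was -5.23 ± 0.36, or 37.6-fold (adjusted p = 6.18e-09 by limma). Itgax, the integrin alpha X chain (CD11c), was at 684, 701 and 728 in WT both, and at 30.4, 21.3 and 20.4 in KO set A, below the array median. It differed by -4.90 ± 0.23. Clec7a, the beta-glucan receptor dectin-1, was at 719, 816 and 766 against 41.6, 52.7 and 48.9, a difference of -4.01 ± 0.18. In KO set A, Itgax thus lay under the array median, Clec7a just above it and Cst7 at a low level.

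Promoters of 4 strongly fallen genes are shown for the letters upstream of them. They were chosen as the largest named falls that hold a motif before the start. Trem2 is among them, and its fall is that of the knocked-out gene itself. RefSeq promoters on GRCm38.p6 were found for 9470 of the genes tested, each from 250 bases before to 50 after the start. In each, 4 motifs were searched on both strands. They were CACGTG, a site of E-box factors, and TCACATG, a site of the MITF and TFE family. The others were TGANTCA, a pattern that takes in the AP-1 site, and GAGGAAGT, a site of PU.1. N is any base, so a TGANTCA match, such as TGAATCA in Trem2, need not be an AP-1 site. Motifs were counted separately, and matches of different motifs can overlap. Of 16 named falls, 11 had a promoter and 7 held at least 1 motif. The share of all promoters with at least 1 motif was not counted. The 250 bases before the start are printed for 4 of them, with the motif in capitals.
Itgax, chr7:128129300-128129549, plus strand: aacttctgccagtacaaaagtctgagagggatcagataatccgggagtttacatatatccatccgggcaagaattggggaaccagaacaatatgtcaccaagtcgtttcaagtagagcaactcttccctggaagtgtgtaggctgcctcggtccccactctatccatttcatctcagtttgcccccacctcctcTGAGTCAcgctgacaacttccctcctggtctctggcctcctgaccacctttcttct
Trem2, chr17:48346151-48346400, plus strand: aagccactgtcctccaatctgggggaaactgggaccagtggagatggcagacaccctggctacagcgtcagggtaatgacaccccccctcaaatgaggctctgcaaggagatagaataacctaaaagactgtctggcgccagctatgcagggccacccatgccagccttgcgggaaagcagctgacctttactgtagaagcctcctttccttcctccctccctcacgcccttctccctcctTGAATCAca
Olr1, chr6:129507166-129507415, minus strand: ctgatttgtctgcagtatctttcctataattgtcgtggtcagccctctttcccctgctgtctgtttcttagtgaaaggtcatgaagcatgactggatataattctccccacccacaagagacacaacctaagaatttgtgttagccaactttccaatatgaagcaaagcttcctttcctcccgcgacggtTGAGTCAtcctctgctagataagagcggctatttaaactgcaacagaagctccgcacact
Mmp12, chr9:7344147-7344396, plus strand: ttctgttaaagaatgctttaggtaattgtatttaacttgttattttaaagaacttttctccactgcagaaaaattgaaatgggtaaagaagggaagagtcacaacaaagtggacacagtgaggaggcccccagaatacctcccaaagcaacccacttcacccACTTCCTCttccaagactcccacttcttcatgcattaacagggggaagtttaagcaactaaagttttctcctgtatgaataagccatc
Itgax, Trem2 and Olr1 hold TGANTCA, and the Mmp12 promoter printed holds GAGGAAGT on the reverse strand. Mmp12 has 2 promoters in the RefSeq table, and the one not printed holds TGANTCA and TCACATG before its start. TGANTCA was present in 6.22% of all promoters, in 9.58% of those of lower genes, in 17.5% of those of genes lower by at least 2-fold (25 of 143) and in 5.79% of those of higher genes. Trem2 is among those 25. GAGGAAGT was in 3.74% of all promoters, 5.59% of those lower by at least 2-fold and 7.37% of those of higher genes. CACGTG was in 11.7% of all and 9.79% of those lower by at least 2-fold, and TCACATG in 3.05% and 4.2%. A match is a description of the letters and was not tested as a binding site.

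The late DAM list fell almost whole. Of its 21 genes tested, 20 were lower and 0 higher, with a median difference of -2.33 against 0.03 for all genes; 5.6% of all genes were called lower. Lpl, a lipase that releases fatty acids from lipoproteins, was at 895, 974 and 790 in WT both and at 56.3, 34.5 and 37.5 in KO set A, a difference of -4.40 ± 0.27. Gpnmb, a transmembrane glycoprotein of lipid-laden phagocytes, was at 537, 676 and 498 against 28.1, 35.8 and 28.7 and fell by 4.21 on the log2 scale. Axl, a receptor tyrosine kinase for apoptotic cells, was at 685, 798 and 647 against 60.1, 73.3 and 65.9 and fell by 3.42. The 2 groups were well apart in these genes. Lgals3, galectin-3, fell by 2.49 and Ctsl, cathepsin L, by only 0.50, which shows the range within the list. Cd68, a lysosomal membrane protein of macrophages, was the member not called (-0.18 ± 0.08, adjusted p = 0.146). The early DAM list had 6 of 9 lower and 0 higher, with a median of -0.59. Apoe, the main apolipoprotein of the brain, was at 6953, 7302 and 6968 in WT both and at 2790, 3731 and 3846 in KO set A. It fell by 1.05 ± 0.13 (adjusted p = 1.99e-05). Cstb, the cysteine protease inhibitor cystatin B, fell by 1.32, Timp2, a metalloproteinase inhibitor, by 0.69 and Lyz2, lysozyme of myeloid cells, by 0.62. B2m, Tyrobp and Ctsd were not called.

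**Figure D2:**
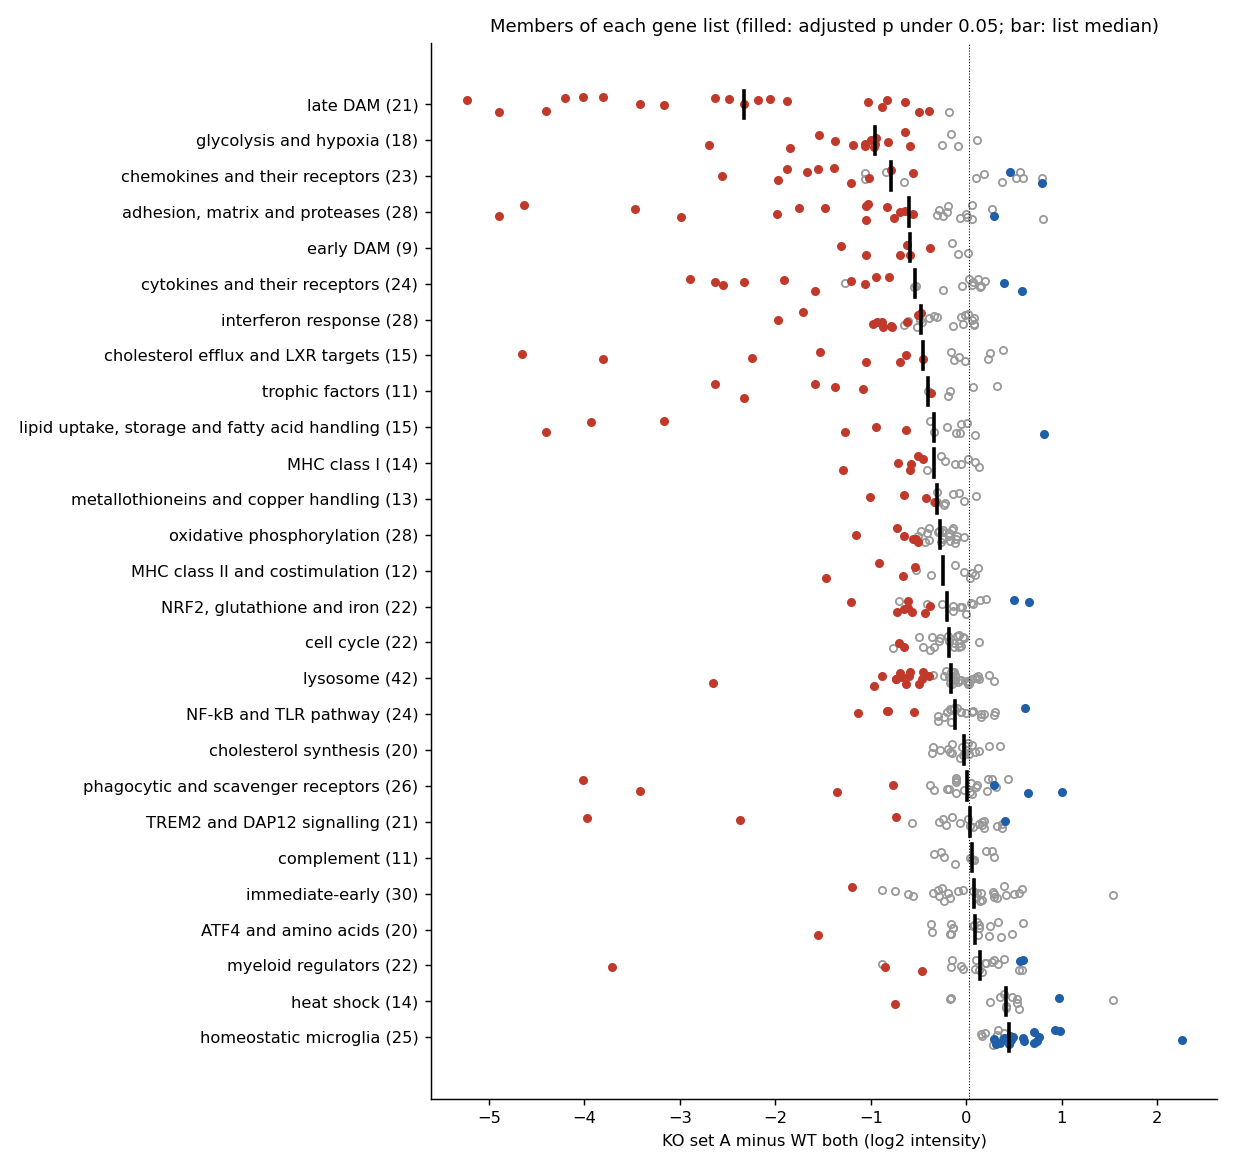
Difference between KO set A and WT both (x axis, log2 intensity) for each member tested of 27 gene lists (number in brackets); filled points were called (red lower, blue higher), black bars are list medians and the dotted line is the median of all genes, 0.03. Late DAM members lie furthest left, with a median of -2.33, and all 25 homeostatic members lie above 0.

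Genes of lipid uptake and cholesterol export were lower in part. In the lipid list, 6 of 15 were lower and 1 higher, with a median of -0.34. Olr1, the oxidised LDL receptor LOX-1, was at 276, 267 and 302 in WT both and at 19.0, 19.5 and 16.7 in KO set A, below the array median. It fell by 3.94 ± 0.18 (adjusted p = 7.37e-12). Fabp5, a fatty acid carrier, was at 589, 668 and 586 against 55.4, 77.2 and 74.2 and fell by 3.17. Plin2, a coat protein of lipid droplets, fell by 1.27 (396, 427 and 408 against 169, 182 and 160). Among cholesterol efflux and LXR target genes, 8 of 15 were lower and 0 higher, with a median of -0.46. Apoc1, a small apolipoprotein next to Apoe on chromosome 7, was at 1274, 998 and 1221 in WT both and at 43.5, 46.4 and 47.7 in KO set A, a difference of -4.66 ± 0.51. Ch25h, which makes 25-hydroxycholesterol, was at 391.5, 519 and 496 against 34.3, 33.5 and 32.3 and fell by 3.80. Nceh1, a hydrolase of cholesterol esters, fell by 2.24 and Apoc4 by 1.53. None of the 20 cholesterol synthesis genes tested passed limma's adjusted p, and their differences ran from -0.36 to 0.36 with a median of -0.02.

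Adhesion, matrix and protease genes had 15 of 28 lower and 1 higher, with a median of -0.60. Fn1, fibronectin, was at 614, 772 and 631 in WT both and at 25.1, 28.5 and 27.4 in KO set A, below the array median. It fell by 4.63 ± 0.48 (adjusted p = 2.04e-06). Mmp12, macrophage elastase, was at 264, 342 and 243 against 25.6, 29.4 and 21.3 and fell by 3.47. Fam20c, a kinase of secreted proteins, was at 249, 230 and 221 against 27.8, 27.5 and 33.1 and fell by 2.99. All 3 genes were thus under the array median in every KO set A array. Itgav, the integrin alpha V chain, was the member called higher, by 0.29 ± 0.09. Its call was lost without WT both 2, WT both 3, KO set A 2 or KO set A 3, from the 6 arrays alone, and with each array centred on its median. Other large falls outside this list were those of Bhlhe40, a transcriptional repressor, by 3.71 (184, 214 and 176 against 14.4, 15.4 and 13.8) and of Ptgs2, cyclooxygenase-2. Ptgs2 was at 1304, 1326 and 1300 against 139, 144 and 187 and differed by -3.08 ± 0.67 (adjusted p = 0.00474).

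In the lysosome list, 14 of 42 genes were lower and 0 higher, with a median of -0.16. Atp6v0d2, a subunit of the proton pump found in osteoclasts and some macrophages, was at 128, 74.4 and 88.6 in WT both and at 17.0, 14.5 and 13.8 in KO set A, and fell by 2.65. Outside WT both, only WT cuprizone 3 lay above its array median, so this gene was tested through the group where it was high. The other falls were smaller. Gla, alpha-galactosidase, fell by 0.96, Ctsz, cathepsin Z, by 0.89 and Gaa, acid alpha-glucosidase, by 0.74. The remaining 28 members, Lamp1, Psap and Grn among them, were not called.

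Glycolysis and hypoxia genes had 14 of 18 lower and 0 higher, with a median of -0.96. Egln3, a prolyl hydroxylase induced by hypoxia, was at 167, 165 and 125 in WT both and at 24.6, 22.2 and 22.8 in KO set A, and fell by 2.70. Pgk1, phosphoglycerate kinase, was at 718, 742 and 738 against 255, 234 and 268, and fell by 1.54 ± 0.18. Mif, a cytokine regulated by hypoxia, fell by 1.85, and Vegfa, a vascular growth factor, fell by 1.38. The arrays of the 2 groups did not overlap in these genes, and the mean of the whole list was 8.69 to 8.91 in WT both and 7.86 to 7.89 in KO set A (log2). The hexokinases Hk1, Hk2 and Hk3 and the regulator Pfkfb3 were the members not called. Of 28 oxidative phosphorylation genes, 6 were lower and 0 higher, all 28 differences were below 0, and their median was -0.28. Ndufa1, a subunit of complex I, fell by 1.15, Ndufb5 of the same complex by 0.72, and Cox4i1 and Cox5b of complex IV by 0.65 and 0.56.

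Homeostatic microglial genes were higher in KO set A. Of 25 tested, 18 were higher and 0 lower, all 25 differences were above 0, and the median was 0.45; 4.01% of all genes were called higher. P2ry12, the ADP receptor by which microglial processes find damage, was at 2685, 2541 and 2636 in WT both and at 3590, 3552 and 3618 in KO set A, a rise of 0.45 ± 0.08 (adjusted p = 0.000865). Tmem119, a membrane protein that marks microglia, was at 2171, 2065 and 2066 against 3487, 3513 and 3280 and rose by 0.71. Cx3cr1, the fractalkine receptor, was at 3932, 3885 and 4009 against 5223, 5600 and 5427 and rose by 0.46. These rises were below 2-fold but the groups did not overlap. Csf1r, the receptor for CSF1 and IL-34 on which microglia depend, rose by 0.31, Siglech, a sialic acid receptor, by 0.76, and the microglial transcription factor Sall1 by 0.60. Gpr165, an orphan receptor on chromosome X, rose most within the list, from 374, 370 and 360 to 1939, 1988 and 1410, a difference of 2.26 ± 0.20. Crybb1 rose by 0.98 and Slc2a5, a fructose transporter, by 0.93.

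Few other genes rose by as much. Rasgrf2, an exchange factor for RAS on chromosome 13, was at 34.1, 23.3 and 26.3 in WT both, below the array median, and at 231, 290 and 237 in KO set A. It rose by 3.19 ± 0.20 (adjusted p = 1.47e-09). Bank1, a scaffold protein of B-cell receptor signalling, was at 144, 108 and 143 against 349, 409 and 429 and rose by 1.59. Csmd3, a large CUB and sushi domain protein, was at 355, 337 and 371 against 855, 815 and 1038 and rose by 1.34. Klrd1, the NK receptor chain CD94, rose by 1.96, with WT both 3 at 51.9 and the other two arrays of its group at 20.03 and 17.12. Il7r, the interleukin-7 receptor, rose by 1.02 and Mtss1, an actin-binding protein, by 1.02. Snora31, a small nucleolar RNA, rose by 1.02. Apobec2 rose by 1.17, Ptger3, a receptor for prostaglandin E2, by 1.13 and Gimap9 by 1.15, all 3 from levels below the array median in WT both. The call of Gimap9 was lost without any one of WT both 1, 2 and 3 or KO set A 2 and 3.

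**Figure D3:**
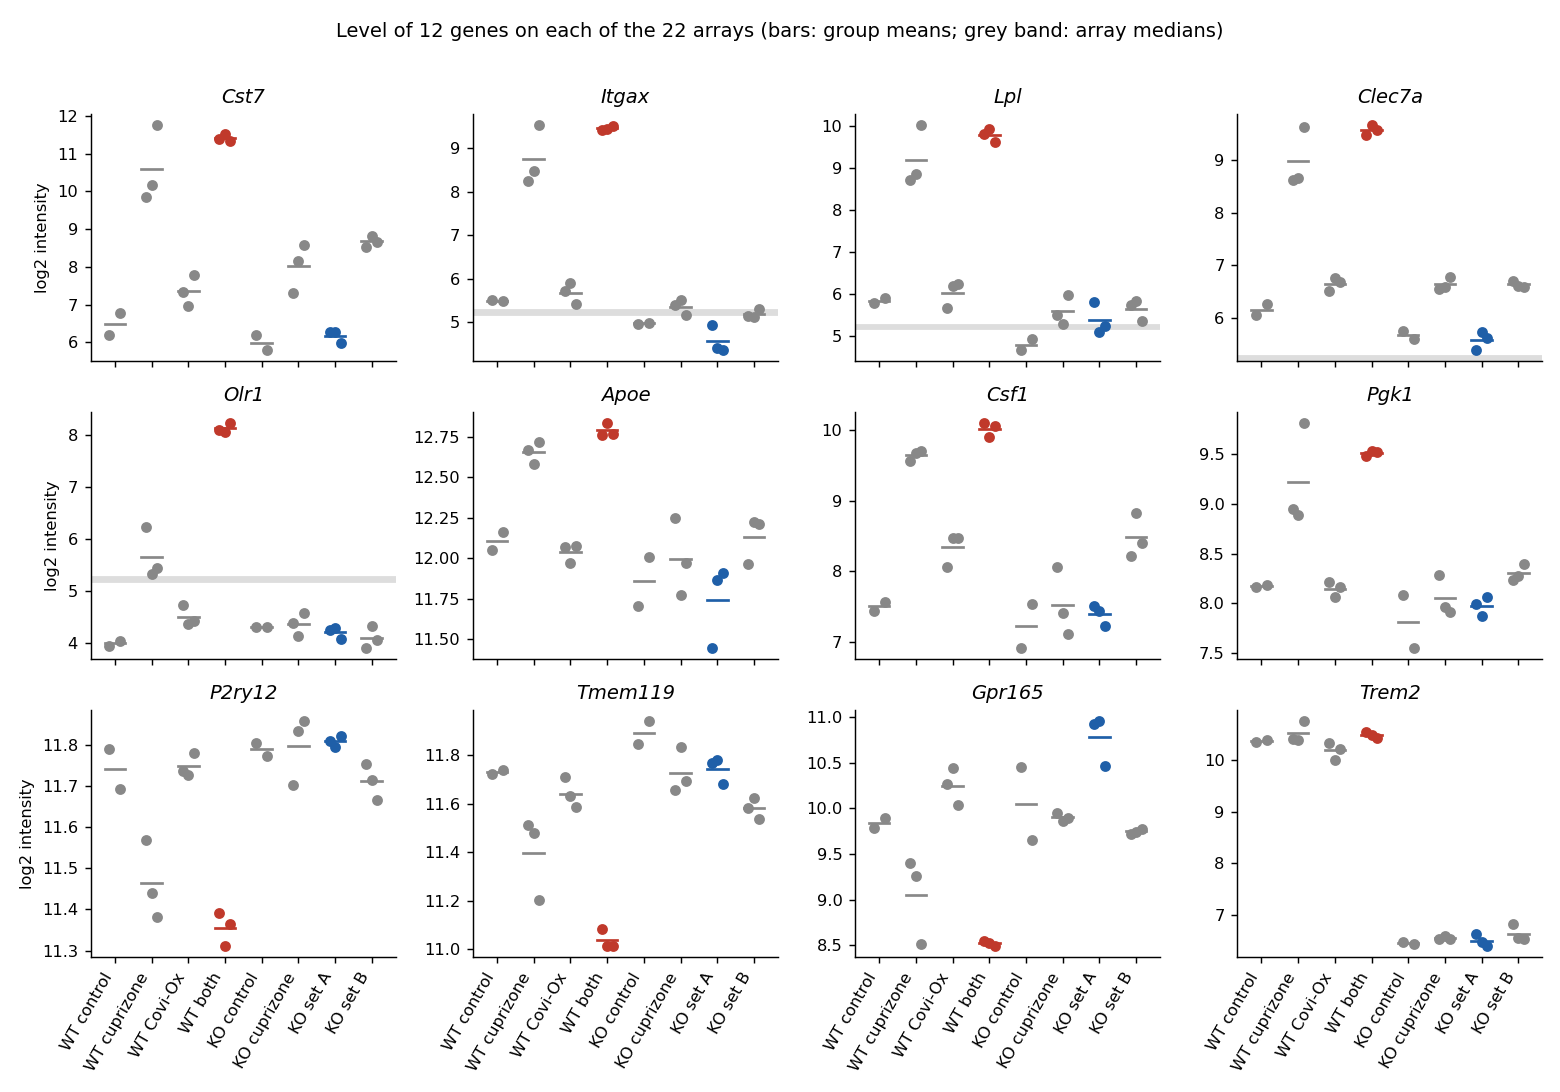
Level (y axis, log2 intensity) of 12 genes on each of the 22 arrays by group (x axis), with WT both in red, KO set A in blue, bars for group means and a grey band for the array medians; each panel has its own y range. KO set A lies close to the other knockout groups for Trem2, and its Itgax arrays lie below the array medians.

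Cytokine and receptor genes had 10 of 24 lower and 2 higher, with a median of -0.54. Csf1, the growth factor of macrophages, was at 1101, 964 and 1070 in WT both and at 182, 174 and 150 in KO set A, and fell by 2.63 ± 0.20. Tnfsf9, the ligand of 4-1BB, was at 548, 561 and 576 against 72.8, 73.9 and 80.1 and fell by 2.89. Il1b, the inflammatory cytokine interleukin-1 beta, was at 1823, 2250 and 1943 against 352, 326 and 345. Its groups were far apart, but the spread of the other arrays gave -2.55 ± 0.79 (adjusted p = 0.0463), and the call was lost when any one of the 6 arrays was left out. Among chemokines and their receptors, 10 of 23 were lower and 2 higher, with a median of -0.78. Cxcr4, the CXCL12 receptor, fell by 2.56 and Ccl6 by 1.87. Ccl5, a T-cell attractant, fell by 1.67, with KO set A 1 at 470 and the other two arrays at 251 and 196. Trophic factors had 6 of 11 lower and 0 higher. Igf1, which supports oligodendrocytes, was at 292, 297 and 291 in WT both and at 62.4, 53.7 and 59.5 in KO set A, and fell by 2.33. Osm, oncostatin M, fell by 1.58. In the NF-kB and TLR list, 4 of 24 were lower and 1 higher, with 20.8% called. Tlr2 fell by 1.14, Tlr1 by 0.83 and Tnfaip2 by 0.82, and Tlr4 rose by 0.61.

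Interferon response genes had 11 of 28 lower and 0 higher, with a median of -0.48. Cxcl10, a chemokine induced by interferons, was at 1272, 1370 and 1406 in WT both and at 445, 296 and 306 in KO set A, and fell by 1.98. Ifi27l2a was at 2264, 2304 and 2224 against 869, 599 and 631 and fell by 1.71. KO set A 1 was the highest of its 3 arrays in both genes. Oasl2 fell by 0.97 and Oas1a by 0.94, both antiviral genes of the OAS family. The count of called members was 4 without KO set A 3, 5 without KO set A 2 and 7 without WT both 1 or WT both 2. Oas1a was not called when any one of the 6 arrays was left out, and Oasl2 was not called without WT both 2, KO set A 2 or KO set A 3. MHC class I and peptide-loading genes had 6 of 14 (42.9%) lower and 0 higher. H2-M3 fell by 1.29, the peptide transporter Tap1 by 0.71, H2-Q4 by 0.59 and the proteasome activator Psme2 by 0.58. MHC genes are close paralogs whose probe sets may share signal. In the MHC class II and costimulation list, 4 of 12 (33.3%) were lower and 0 higher. Cd274, the checkpoint ligand PD-L1, was at 210, 239 and 229 against 88.1, 67.4 and 91.8 and fell by 1.47. Cd74, the invariant chain, fell by 0.91, H2-DMa by 0.66 and H2-Aa by 0.54. The calls of Psme2 and H2-Aa were lost in at least 1 fit without a single array.

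Phagocytic and scavenger receptors moved both ways, with 4 of 26 lower and 3 higher. Their median of 0.01 turned to -0.011 with each array centred on its median. Fcgr4, an activating Fc receptor, fell by 1.35 (247, 252 and 297 against 104, 111 and 96.6). Mrc1, the mannose receptor CD206, rose by 1.00 (369, 313 and 389 against 608, 712 and 835), a call lost without WT both 2 or KO set A 3. Without WT both 2, 4 members of the list were called, all lower. Among 21 genes of TREM2 and DAP12 signalling, 3 were lower and 1 higher, with 19% called against 9.6% of all genes. Trem2 is among the 3 lower, and its call follows from the genotype, so the share is not read as an excess. Besides Trem2, Fgr, a SRC-family kinase, fell by 2.37 (149, 132 and 159 against 27.03, 24.9 and 33.7) and Hcst, the adaptor DAP10, by 0.74. Inpp5d, the inositol phosphatase SHIP1, rose by 0.40 (1179, 1170 and 1247 against 1506, 1623 and 1623). Without WT both 1, 2 members were called, since Hcst and Inpp5d were lost. The call of Inpp5d was also lost without WT both 2, KO set A 2 or KO set A 3. With the 3 arrays low in immediate-early genes left out, 8 were called, 5 lower and 3 higher. Syk, Plcg2 and Btk were not called. None of 11 complement genes passed limma's adjusted p in the fit over all arrays. With those 3 arrays left out, 2 did, 1 in each direction.

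In the NRF2, glutathione and iron list, 8 of 22 were lower and 2 higher, with a median of -0.20. Slc7a11, the cystine transporter, fell by 1.21 from levels near the array median (32.4, 47.5 and 39.2 against 14.4, 23.6 and 14.2). Of all arrays, only WT both 2 and WT both 3 lay above their median. The gene was thus tested only through the group where it was high. Prdx1, a peroxiredoxin, fell by 0.73 and Txn1, thioredoxin, by 0.65, and Slc40a1, the iron exporter ferroportin, rose by 0.65, a call lost without KO set A 1. Hmox1, which degrades heme, was at 870, 947 and 787 against 841, 857 and 821, and its groups overlapped (-0.04 ± 0.25, adjusted p = 0.947). The count of 10 called members was 5 without WT both 2 and 6 without any one of the other 5 arrays. Of 13 metallothionein and copper genes, 4 were lower and 0 higher. Atox1, a copper chaperone, fell by 1.01 (1321, 1352 and 1303 against 640, 701 and 636) and Cox17, which hands copper to complex IV, by 0.65. Mt1 fell by 0.42 and the copper pump Atp7a by 0.33, and both calls were lost without any one of the 6 arrays, leaving 2 called members each time.

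Of 20 ATF4 and amino acid genes, 1 (5%) was called, Psat1 of serine synthesis, which fell by 1.55. The count was 2, with 1 in each direction, without WT both 3, without KO set A 3 or without the 3 low arrays. Of 22 myeloid regulators, 3 were lower and 2 higher. Besides Bhlhe40 and Mitf, Id2, an inhibitor of helix-loop-helix factors, fell by 0.85, a call lost without any one of the 6 arrays. Maf rose by 0.56 with Sall1, and was not called without KO set A 2. Mitf was not called without KO set A 3. Without KO set A 2 or KO set A 3, 3 of these regulators were called, and 10 without the 3 arrays low in immediate-early genes. Of 22 cell cycle genes, 2 were lower, Ckap2l by 0.70 and Stmn1 by 0.65, and 0 higher. That is 9.09% called, near the 9.6% of all genes. None was called without WT both 2, WT both 3, KO set A 2 or KO set A 3, and 1 without WT both 1 or KO set A 1. The heat shock list had 1 of 14 lower, Hspe1 by 0.75, and 1 higher, Hsph1 by 0.98, with a median of 0.42. These calls were 14.3% of its members. The immediate-early list had 1 of 30 (3.33%) lower and 0 higher, and the lower gene, Maff, fell by 1.20. These 2 lists depended on the arrays that share the spread. From the 6 arrays alone, 10 heat shock genes were higher and 1 lower, and 6 immediate-early genes were higher and 5 lower. Hsph1 alone was lost, leaving 1 heat shock call, without WT both 1, 2 or 3 or KO set A 1 or 3. Without the 3 low arrays, 8 heat shock genes were higher and 1 lower, and 8 immediate-early genes were higher and 5 lower.

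Markers of other brain and blood cells were mostly not called, but several of these short lists were above the 9.6% of all genes. The share called was 40% of 5 endothelial markers tested, 50% of 2 B-cell markers and 23.1% of the border macrophage list. It was 20% each of 10 monocyte and 5 T and NK cell markers, where Il7r was the T and NK marker called. None was called in the astrocyte, neuron and erythroid lists. The border macrophage list had 3 of 13 higher and 0 lower, with a median of 0.58. They were Mrc1, Pf4, a platelet chemokine also made by these macrophages, which rose by 0.80, and Maf. With the 6 arrays alone, or without the 3 low arrays, 7 were higher and 0 lower. The monocyte list had 2 of 10 lower, Fn1 and Ms4a4c, the latter by 1.61, and 0 higher. From the 6 arrays alone, 4 were lower and 2 higher. None of 9 neutrophil markers was called by limma, and their median was -0.17. Of 8 oligodendrocyte markers, 1 (12.5%) was lower, Cspg4 of the precursor cells, by 0.84. Mbp, the myelin basic protein, was at 83.0, 76.4 and 81.4 in WT both and at 66.4, 85.2 and 64.2 in KO set A, and its groups overlapped (-0.17 ± 0.13, adjusted p = 0.483). In the endothelial list, Flt1, a VEGF receptor also found on macrophages, fell by 2.45 and Pecam1 rose by 0.86, while 7 of the 11 markers with a probe set were below the array median on all 6 arrays. Cd79b of the B-cell list rose by 0.62.

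Genes near Trem2 were examined because a knockout allele can carry flanking DNA of its strain of origin. Of the 50 nearest protein-coding genes, 25 on each side, 32 were tested. The 5 higher genes were Bicral, Treml4, Apobec2, Plcl2 and Satb1, and the 3 lower were Treml2, Mocs1 and Rftn1, against 9.6% called among all genes. Their median was 0.10. Treml2, a receptor of the same gene cluster, fell by 1.30. The calls of Bicral, Treml4, Plcl2 and Satb1 were each lost without at least 2 of the 6 single arrays. On the whole of chromosome 17, 11.9% of genes tested were called. Between KO set A and WT Covi-Ox, 4 of the 19 called genes lie there, Trem2 among them. Of the called neighbours of Trem2, none was called between KO control and WT control, with Treml4 at 0.685 and Mocs1 at -0.02. None of these neighbours was called between KO set A and WT Covi-Ox either, with Treml4 at 0.75. Between KO cuprizone and WT cuprizone, Treml4 (0.69) and Apobec2 (0.85) were called and the others were not. Flanking DNA was not tested as a source of these differences.

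Chow-fed mice give a comparison of the genotypes on other arrays. KO control and WT control differed in 8 genes, 0.0676% of those tested, and 6 of the 8 (75%) were called between KO set A and WT both, which is 0.528% of the 1136. All 6 had the same sign in both. Trem2 differed by -3.89 on chow and -3.97 in KO set A, and Mid1, a ubiquitin ligase on chromosome X, by -2.60 and -2.66 (log2). Lrmda differed by -1.89 and -2.77, and a gene without an established name, G530011O06Rik on chromosome X, by -6.20 and -4.85. Rasgrf2 rose by 2.84 on chow and by 3.19 in KO set A, and Nnt, the mitochondrial transhydrogenase, by 0.91 and 0.88. Mid1, Lrmda, Nnt and G530011O06Rik are named for this overlap, after their values were seen. The other genes called on chow were Maml2 and the Y-linked Eif2s3y, both lower in KO control. Sex is not labelled, and a sex difference between KO control and other groups was not tested.

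The difference between KO set A and WT both departed from the genotype difference on chow in 211 genes (1.78% of those tested). Of these, 124 were more negative and 87 more positive with KO set A and WT both. Fam20c differed by 0.03 between genotypes on chow and by -2.99 here, a difference of differences of -3.02 ± 0.18 (adjusted p = 8.99e-09). Itgax had -0.52 on chow, with a difference of differences of -4.38 ± 0.36. Gpr165 had 0.21 on chow, with a difference of differences of 2.05 ± 0.31. In the late DAM list, 16 of 21 genes had a called difference of differences, and its median was -0.19 on chow. The count was 87 without WT control 2, 866 without KO control 1 and 539 without the 3 low arrays. Under the descriptions, this difference carries no cuprizone in the knockout arm. It also rests on the KO control arrays, which were lower than WT control in the Y-linked Eif2s3y.

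Mice fed cuprizone alone give a second comparison on other arrays. KO cuprizone and WT cuprizone differed in 450 genes (3.8%), of which 285 were called with KO set A and WT both, all with the same sign. These were 25.1% of the 1136 genes and 63.3% of the 450. Across the 11830 genes the differences correlated at 0.686 (Pearson) and 0.476 (Spearman), as a description, since genes are not independent and both come from 1 fit. Genes lower in KO set A had a median of -0.69 there and of -0.44 on cuprizone alone, and genes higher had 0.50 and 0.19. Late DAM genes had a median of -1.71 on cuprizone alone, with 16 of 21 called. Without the 3 low arrays, which leaves 1 KO cuprizone array against 2, 83 genes differed on cuprizone alone and 72 of them were called with KO set A and WT both, 70 with the same sign. The lone array was then assumed to vary like the other groups. The late DAM median was then -1.20.

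The test of the difference between the 2 comparisons called 2 genes, 0.0169% of those tested. Under the descriptions, the comparison with KO set A has cuprizone in the wild-type arm only. Olr1 differed by -3.94 with KO set A and by -1.30 on cuprizone alone, a difference of differences of -2.64 ± 0.25 (adjusted p = 2.58e-05). Clec7a differed by -4.01 and -2.35, a difference of -1.67 ± 0.26 (adjusted p = 0.0206). Olr1 was at 74.6, 39.8 and 43.2 in WT cuprizone, below all WT both arrays. Clec7a was at 393, 408 and 800 there, the last of these, WT cuprizone 3, within the range of WT both. The knockout arms differed in Clec7a too, at 93.6, 95.55 and 109 in KO cuprizone against 41.6, 52.7 and 48.9 in KO set A. For Olr1 they overlapped, at 20.7, 17.5 and 23.7 against 19.0, 19.5 and 16.7. Without the 3 low arrays, Olr1 had -2.54 ± 0.31 and Clec7a -1.91 ± 0.19. The call of Olr1 held without any one of the 12 arrays compared. That of Clec7a was lost without WT cuprizone 1, WT cuprizone 2, WT both 1, WT both 2 or KO set A 1, with adjusted p up to 0.111, and from the compared arrays alone (adjusted p = 0.205). Without the 3 low arrays 58 genes were called, and 145 were called without WT cuprizone 3 alone, so the count depended on that array. Cst7 had -2.66 ± 0.51 and was not called (adjusted p = 0.068).

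**Figure D4:**
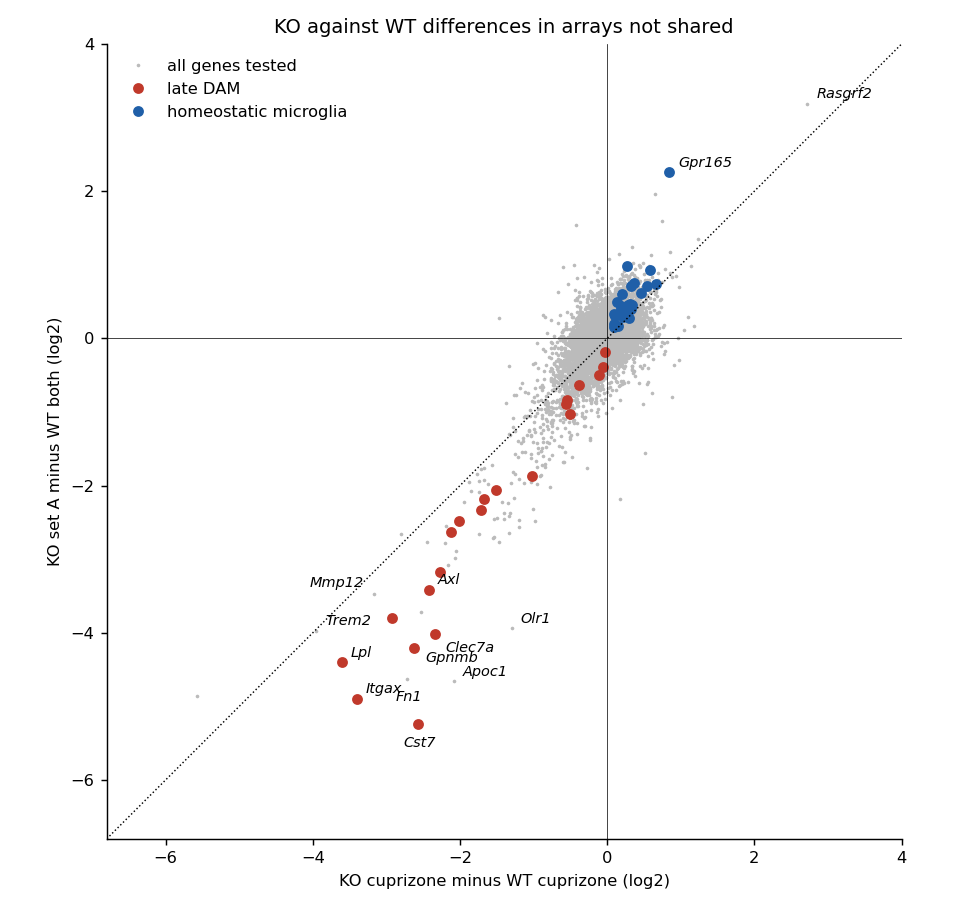
Genotype difference on cuprizone alone (x axis, KO cuprizone minus WT cuprizone, log2) against KO set A minus WT both (y axis, log2) for 11830 genes, on arrays that are not shared; the dotted line marks equal differences. Late DAM genes (red) lie below the line, and Olr1 lies far below it at -1.30 and -3.94.

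KO set A was also set beside the other groups, in comparisons that share its arrays or those of WT both. KO set A and KO set B differed in 1 gene, 0.00845% of those tested. It was Cst7, at 372, 450 and 406 in KO set B against 77.5, 78.1 and 62.9 in KO set A, a difference of -2.49 ± 0.36 (adjusted p = 0.0142). Its call was lost without any one of KO set A 1, 2 and 3 or KO set B 2 and 3, with adjusted p up to 0.158, while the difference stayed between -2.56 and -2.39. Without adjustment, 1041 genes had a p under 0.05. The count ran from 0 to 8 when single arrays of the 2 sets were left out, and was 27 from their 6 arrays alone and 72 without the 3 low arrays. KO set B against WT both had 460 called genes (3.89%), with a late DAM median of -2.19 and 17 of 21 called.

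KO set A against WT Covi-Ox had 19 called genes (0.161%). Clec7a was lower by 1.08 and Fam20c by 0.62, Csmd3 was higher by 0.79, and the genes Trem2, Mid1, Lrmda, G530011O06Rik, Rasgrf2 and Nnt were among them. The late DAM median was -0.30 with 1 of 21 called, and the homeostatic median was 0.06. KO set A against KO control had 4 called genes (0.0338%), all higher in KO set A. They were Maml2, the Y-linked Eif2s3y and the interferon-induced Slfn2 and Ifit3. None was of the late DAM list, whose median was 0.07. WT both against WT Covi-Ox had 925 (7.82%), with a late DAM median of 1.92 and 19 of 21 called, and a homeostatic median of -0.41. Interferon response genes had medians of 0.40 against WT Covi-Ox, 0.46 against KO control and -0.48 against WT both, so KO set A was above the first 2 groups and below the last by this median.

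**Figure D5:**
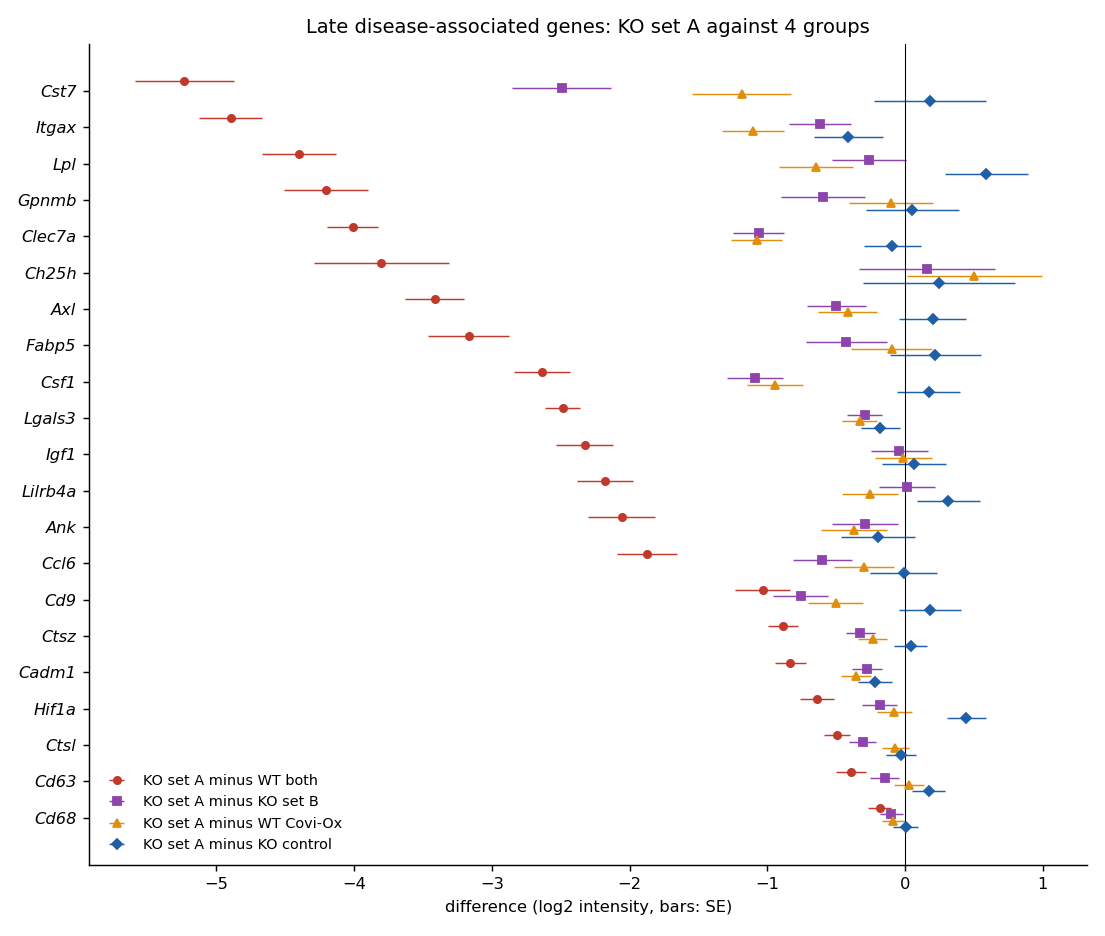
Difference of KO set A (x axis, log2 intensity, bars for SE) from WT both, KO set B, WT Covi-Ox and KO control for the 21 late DAM genes tested. Differences from WT both reach -5.23 for Cst7, whereas the list's medians against WT Covi-Ox and KO control are -0.30 and 0.07.

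By group, the mean of the late DAM list (log2) was 9.81 to 9.91 in WT both and 7.34 to 7.46 in KO set A. It was 9.06 to 10.0 in WT cuprizone, 7.88 to 7.92 in KO set B, 7.72 to 7.85 in WT Covi-Ox and 7.69 to 7.83 in KO cuprizone. WT control ran from 7.54 to 7.58 and KO control from 7.30 to 7.36. The range of KO set A thus overlapped that of KO control alone and lay below those of the other 6 groups.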

How the data were processed

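RNA of sorted brain microglia was hybridised to Affymetrix arrays. The authors deposited 1 table of linear intensities, made with RMA per the submitters' processing notes. The RMA release is not given in the sources used here. Of 28098 probe sets, 21640 had 1 gene symbol in the platform annotation, 1321 several and 5137 none listed, and 21553 of the first were in RefSeq. The log2 of the deposited intensities was taken. There were 2 empty cells, and single-gene probe sets with an empty cell were left out. The probe set with the highest mean stood for each of 19936 genes, and 11830 genes above the array's median on at least 2 arrays were tested. limma 3.58.1 in R 4.3.3 fitted 1 mean per group over the 8 groups and 22 arrays (14 residual degrees of freedom, 5.49 prior), with Benjamini-Hochberg adjustment. The fit was tested on simulated data. The number of arrays limits the precision.

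Named genes were called genes with the largest rises (up to 12) and falls (up to 16) whose arrays did not overlap, without clones, predicted or Y-linked genes, up to 4 called members of each of 37 lists, and 15 genes always given. The members and lists were chosen with earlier results of these data known. Promoter sequences are RefSeq's. Alternatives covered the block, arrays, filter, scaling, probe sets, moderation, weights, thresholds and single arrays. Same-numbered arrays of the 2 groups correlated in their deviations over all genes at -0.024, -0.004 and -0.019, so no pairing by number showed. Correlations over all genes cannot exclude shared handling that affects a part of the genes.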

Additional observations from a re-analysis of the deposited data

Results flagged for a closer look

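For 44 results, the difference between KO set A and WT both departed from the genotype difference on cuprizone alone or on chow. This was a test of the difference itself in the same limma fit. Under the descriptions of KO set A, the difference from WT both has cuprizone in the wild-type arm only. Against cuprizone alone, the differences of differences were -2.64 for Olr1 and -1.67 for Clec7a (log2). Against normal chow, 42 of the 108 named genes differed, against 1.78% of all genes tested. Most named genes were chosen by their difference between KO set A and WT both, which is part of this test. A high count among them follows from that choice. Those more negative with KO set A by over 2-fold included the DAM, lipid and matrix genes Apoc1 (-4.95), Cst7 (-4.75), Itgax (-4.38), Gpnmb (-4.36), Olr1 (-4.25), Fn1 (-4.24), Bhlhe40 (-3.95), Ch25h (-3.70), Clec7a (-3.52), Lpl (-3.36), Axl (-3.19), Mmp12 (-3.13), Fam20c (-3.02), Fabp5 (-2.97), Nceh1 (-2.26) and Plin2 (-1.31). Signalling and trophic genes of the same direction were Cxcr4 (-2.66), Igf1 (-2.39), Ccl5 (-2.37), Flt1 (-2.36), Csf1 (-2.35), Fgr (-1.95), Ccl6 (-1.68) and Cd274 (-1.34). Lysosomal and metabolic genes were Atp6v0d2 (-2.65), Egln3 (-2.40), Gla (-1.51), Ndufa1 (-1.36), Mif (-1.30), Pgk1 (-1.18) and Cstb (-1.02). Smaller differences were those of Atox1 (-0.82), Tlr2 (-0.72) and Ctsz (-0.71). More positive with KO set A were Gpr165 (2.05), Bank1 (1.77), Crybb1 (1.08), Csmd3 (1.03), Il7r (0.88), Cd79b (0.82), Siglech (0.80) and Tlr4 (0.71).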

How the results depend on the processing

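The 1136 genes called between KO set A and WT both became 1879 with array weights, 576 at an adjusted p under 0.01 and 196 with at least 2-fold. They were 718 to 809 with single arrays left out, 1261 without KO control 2, and 971 to 1612 in the other settings. With quantile normalization 49.9% of calls were higher and with median centring 34.6%, against 41.7%. Of 105 called named genes, 88 kept their call without any single one of the 6 arrays and none reversed in any setting. Replicate numbers showed no pairing of the arrays over all genes, and with the number as a block 1067 genes were called. For KO set A against KO set B, 1 gene became 3 with the block, 27 from its arrays alone, 13 with the filter at the 75th percentile, 10 with trend and robust moderation, 91 with array weights, 0 at an adjusted p under 0.01, 72 without the 3 low arrays, 7 without KO control 2 and 0 to 8 without single arrays. The difference from cuprizone alone went from 2 genes to 7 with the block, 1 from its arrays alone, 98 with array weights, 1 at an adjusted p under 0.01, 58 without the 3 low arrays, 5 without KO control 2 and 1 to 145 without single arrays. The difference from chow went from 211 to 67 at an adjusted p under 0.01, 118 with at least 2-fold, 539 without the 3 low arrays, 87 without KO control 2 and 87 to 866 without single arrays. Stricter thresholds lower counts by construction, and the cause of the other changes was not tested. The comparison with cuprizone alone without the 3 low arrays, and the fits without single arrays for genes such as Itgav, were chosen after seeing the data.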
